A study of Mus musculus with 11 samples.

Results

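The expression of 35 genes of glycolysis and of the transcriptional response to low oxygen was followed in mouse cells with and without Mettl3, the methyltransferase that places the mark N6-methyladenosine in mRNA. The 35 were taken by gene symbol from the 39179 gene identifiers of the deposited expression table and form 3 lists, namely 16 glycolytic enzymes, 3 glucose and lactate transporters and 16 hypoxia-induced genes. All 35 were found, and all 35 had a mean of 10 or more normalized counts, the minimum for testing.

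The cells were Mettl3-KO embryonic stem cells (ESCs; 3 libraries, A, B and C), WT ESCs (A, B and C), Mettl3-KO embryoid bodies (EBs; A and B) and WT EBs (A and B), all labelled C57BL/6. ESCs had been kept free of serum in N2B27 with LIF and the inhibitors CHIR99021 (of GSK3) and PD0325901 (of MEK), a medium called 2i. EBs, floating aggregates in which ESCs differentiate, were made from ESCs on non-adherent plates and held for 8 to 21 days in a medium that contained serum. The age of each EB library, the number of KO clones and the way the gene was inactivated are not given in the sources used here. Replicates are told apart by letter alone, with nothing said of separate clones or cultures, so p-values measure the spread between these libraries, which may be technical. ESC replicate C of either genotype is labelled as used for SILAC, a protein labelling method. The WT embryonic fibroblast library that the series also names is not analysed here.

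Glycolysis splits glucose into pyruvate in a chain of enzyme steps and yields ATP without oxygen, and lactate dehydrogenase and a lactate exporter clear its end product. When oxygen is scarce, prolyl hydroxylases of the Egln family no longer mark the HIF alpha subunits for destruction by Vhl, and HIF paired with Arnt binds promoters that carry a short core motif and raises genes of glucose uptake, glycolysis, mitophagy, collagen hydroxylation and vessel growth. Pluripotent cells are known for a high rate of glycolysis, which changes as they differentiate. In RNA from whole cultures, fewer cells of a type and less RNA per cell cannot be told apart.

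ESC replicate C stood apart from A and B in both genotypes. It held 3075007 gene reads in KO ESCs and 3026837 in WT ESCs, against 8523027 to 15426894 in the other 8 libraries, and 3 reads, the floor used here, came to 8.33 and 9.88 normalized counts there. The correlation of log2 values across genes, which are not independent replicates, was 0.989 to 0.990 between A and B of a group and 0.653 to 0.692 between C and either of them. A and B of one group still differed by more than the sampling noise, with a chi-square of 8.65 to 11.8 per degree of freedom. Mettl3 itself had 138, 134 and 131 normalized counts in KO ESCs against 422, 392 and 425 in WT ESCs, and 154 and 147 in KO EBs against 399 and 368 in WT EBs. Exons of Tox4 on the other strand cover 18.4% of the Mettl3 exons. All 7 ESC markers, Pou5f1 and Nanog among them, were detected in every library. Of 10 fibroblast markers, the summed level was 11700, 12053 and 242 normalized counts in KO ESCs of A, B and C, against 7190, 7360 and 250 in WT ESCs. Their part in the ESC results was not tested. The differences below were estimated over all 10 libraries with limma, and 2 further fits are set beside them. The first has the replicate letter as a block, and the second leaves out the replicate C libraries. Same-letter KO and WT ESC libraries deviated together from their group means (r = 0.845 for A and 0.828 for B). A and B of different letters did so nearly as much (0.809 and 0.812), so the pairing rests mostly on C. In EBs, with 2 libraries per group, r was 0.369 for the same letter and by construction -0.369 for different letters.

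Of the 16 glycolytic enzymes, Aldoa was called lower in KO ESCs and none was called in KO EBs. The differences of 13 and 14 of the 16 were negative in ESCs and in EBs. The EB comparison leans on the spread of the ESC libraries, replicate C included. Without both replicate C libraries 14 of the 16 were called lower and 1 higher in KO EBs, where 27.9% and 24.1% of all genes were. Taken within a letter, 13, 13 and 15 of the 16 were lower in KO ESCs of A, B and C, and 14 and 15 of the 16 in KO EBs of A and B, where 49.1% to 51.5% of all 15781 genes tested were lower. Together the 16 took 0.487%, 0.471% and 1.13% of all gene reads in KO ESCs against 0.823%, 0.770% and 1.66% in WT ESCs, and 0.545% and 0.522% in KO EBs against 0.970% and 0.936% in WT EBs. In both stages every KO library lay below the WT library of its letter. The median log2 difference of the 16, KO minus WT, was -0.62 in ESCs and -0.90 in EBs, beside -0.02 for all genes tested in each stage. In ESCs, 0 of the 35 genes were called higher and 1 lower (limma, adjusted p under 0.05), where 1.31% and 1.07% of all genes tested were called. The 1 was Aldoa.

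**Figure D1:**
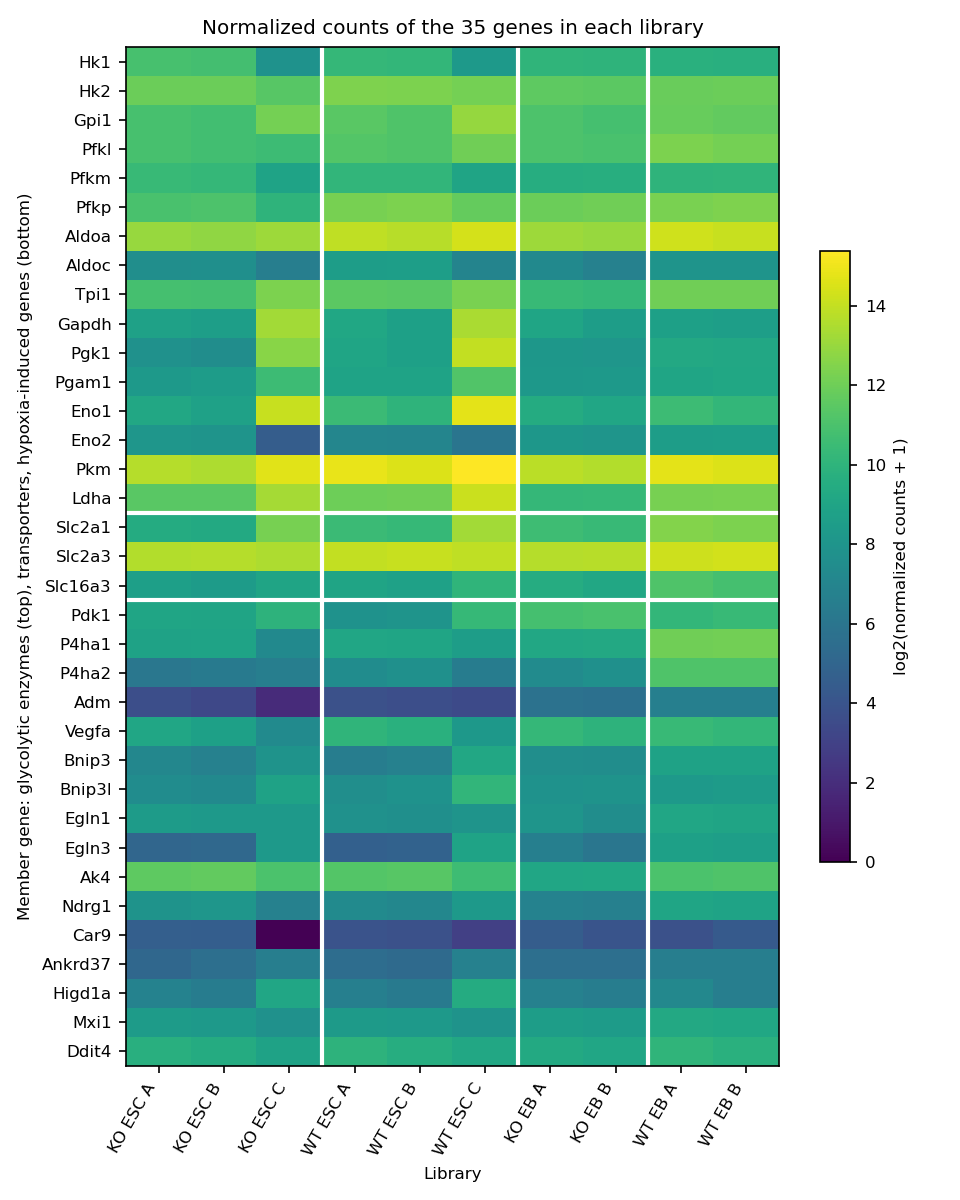
Heat map of the 35 genes (rows, grouped by list) in the 10 libraries (columns), coloured by log2(normalized counts + 1). Gapdh, Pgk1 and Eno1 are bright in ESC replicate C of both genotypes, and P4ha1 and P4ha2 are brightest in the 2 WT EB libraries.

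Aldoa, the aldolase that splits fructose bisphosphate, is the second most abundant of the 16 per kilobase of exon, with a mean level of 4453 normalized counts per kilobase. It had 8154, 7326 and 8804 normalized counts in KO ESCs against 15672, 13690 and 21335 in WT ESCs. Its EB values were 9120 and 8162 in KO EBs against 19648 and 17703 in WT EBs. All KO libraries lay below all WT libraries of either stage, with KO over WT at 0.520, 0.535 and 0.413 in ESCs of A, B and C and at 0.464 and 0.461 in EBs of A and B. Aldoa fell in KO ESCs (log2 difference -1.04, SE 0.19, adjusted p = 0.0436; range over the alternatives 5.11e-05 to 0.314). The call was lost without A or B of either ESC genotype, but 0 of all 15781 genes were called in those fits. They therefore cannot show whether the Aldoa call holds. With edgeR on recovered reads Aldoa had an adjusted p of 0.0828, where 2.15% of all genes were called. In EBs the log2 difference was -1.11 (SE 0.24), with an adjusted p of 0.0669.

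Pkm, the pyruvate kinase that makes pyruvate, led the list with 4524 normalized counts per kilobase. Its values were 13132, 11717 and 26702 in KO ESCs against 29379, 24781 and 42667 in WT ESCs, and 13928 and 12427 in KO EBs against 27221 and 24274 in WT EBs. The ESC groups overlapped through replicate C of KO, and the EB groups did not overlap. On the log2 scale KO minus WT was -0.97 for ESCs (SE 0.34, adjusted p = 0.191). For EBs it was also -0.97 (SE 0.42, adjusted p = 0.363). With the block the adjusted p was 0.00541 in ESCs (range over the alternatives 5.21e-05 to 0.516) and 0.0101 in EBs (0.000128 to 0.923). A predicted gene on the same strand overlaps 15.3% of the Pkm exons.

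Ldha, the lactate dehydrogenase subunit that turns pyruvate into lactate, had 2760, 2766 and 10307 normalized counts in KO ESCs against 4115, 4177 and 18140 in WT ESCs. In EBs it had 1229 and 1274 in KO against 4862 and 5049 in WT. The KO to WT ratio was 0.671, 0.662 and 0.568 in ESCs of A, B and C, and 0.253 and 0.252 in EBs of A and B. These ratios gave log2 differences of -0.66 for ESCs (SE 0.70, adjusted p = 0.775) and of -1.98 for EBs (SE 0.85, adjusted p = 0.359). With the block the EB difference had an adjusted p of 0.00164 (range over the alternatives 1.73e-07 to 0.911).

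Phosphofructokinase commits glucose to glycolysis and is made from 3 isozyme genes. Pfkp, the platelet form, had 2026, 2131 and 1005 normalized counts in KO ESCs against 4783, 5141 and 3370 in WT ESCs, and 3954 and 4227 in KO EBs against 4968 and 5339 in WT EBs. Pfkl, the liver form, had 1878, 1716 and 1522 in KO ESCs against 2475, 2240 and 4315 in WT ESCs, and 2155 and 1991 in KO EBs against 5211 and 4691 in WT EBs. Neither gene's KO libraries overlapped its WT libraries in either stage, but Pfkp had its larger difference in ESCs and Pfkl in EBs. The log2 difference of Pfkp was -1.42 in ESCs (SE 0.31, adjusted p = 0.0613, and 0.00372 with the block; range over the alternatives 5.07e-06 to 0.332). That of Pfkl was -1.25 in EBs (SE 0.31, adjusted p = 0.0949, and 0.0390 with the block; range 1.02e-05 to 0.520). As shares of the 3 genes' summed level per kilobase, Pfkp made up 18.3%, 20.5% and 16.7% in KO ESCs against 33.6%, 36.5% and 23.9% in WT ESCs, so its share was lower in every KO ESC library. In EBs the order was the other way, with 34.9% and 37.2% in KO EBs against 25.5% and 28.1% in WT EBs. Pfkm, the muscle form, took 47.5%, 46.2% and 32.4% in KO ESCs against 31.5%, 31.6% and 14.5% in WT ESCs.

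Tpi1, the triose phosphate isomerase, had 1840, 1800 and 5210 normalized counts in KO ESCs against 2928, 2835 and 4944 in WT ESCs, and 1327 and 1229 in KO EBs against 4301 and 4191 in WT EBs. KO lay below WT in A and B of both stages and slightly above it in C. Its EB difference was -1.73 on the log2 scale (SE 0.52, adjusted p = 0.168, and 0.00744 with the block; range over the alternatives 5.27e-07 to 0.666).

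The enzymes Pgk1, which makes the first ATP of the pathway, and Eno1, which makes phosphoenolpyruvate, were each far higher in replicate C than elsewhere. Pgk1 had 216, 185 and 6388 normalized counts in KO ESCs against 535, 433 and 16282 in WT ESCs, and 282 and 271 in KO EBs against 633 and 605 in WT EBs. Eno1 had 591, 453 and 17311 in KO ESCs against 1455, 1017 and 27505 in WT ESCs, and 712 and 537 in KO EBs against 1480 and 1150 in WT EBs. Within each letter both genes were lower in KO, Pgk1 at 0.392 to 0.448 of WT over the 5 letter pairs. The EB difference on the log2 scale was -1.16 for Pgk1 (SE 2.10) and -1.08 for Eno1 (SE 2.01), and the adjusted p with the block was 0.00295 (range over the alternatives 8.60e-05 to 1.00) and 0.0137 (0.00189 to 1.00). Of both genes most of the transcript occurs again in other genes, so these levels are uncertain, as set out further on.

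The other 8 glycolytic enzymes were Hk1, Hk2, Gpi1, Pfkm, Aldoc, Gapdh, Pgam1 and Eno2. With the block, 10 of the 16 were called lower and 0 higher in KO ESCs, where 15.3% and 14.0% of all genes were. In KO EBs 11 were called lower and 0 higher with it, where 13.4% and 9.27% of all genes were. The 10 in ESCs were Hk2, Gpi1, Pfkp, Aldoa, Aldoc, Pgk1, Pgam1, Eno1, Pkm and Ldha. Those in EBs were Gpi1, Pfkl, Pfkm, Aldoa, Aldoc, Tpi1, Pgk1, Pgam1, Eno1, Pkm and Ldha. The enzymes called in neither stage with the block were the hexokinase Hk1, the neuronal enolase Eno2 and Gapdh. Hk1 had 1886, 1755 and 228 normalized counts in KO ESCs against 1207, 1143 and 300 in WT ESCs. Eno2 had 267, 243 and 22.2 in KO ESCs against 131, 124 and 62.6 in WT ESCs. In ESCs both were higher in KO in A and B and lower in C. In EBs Hk1 was higher in KO, with 1054 and 1005 against 880 and 833 in WT. Eno2 was lower in KO there, with 285 and 264 against 380 and 387 in WT.

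**Figure D2:**
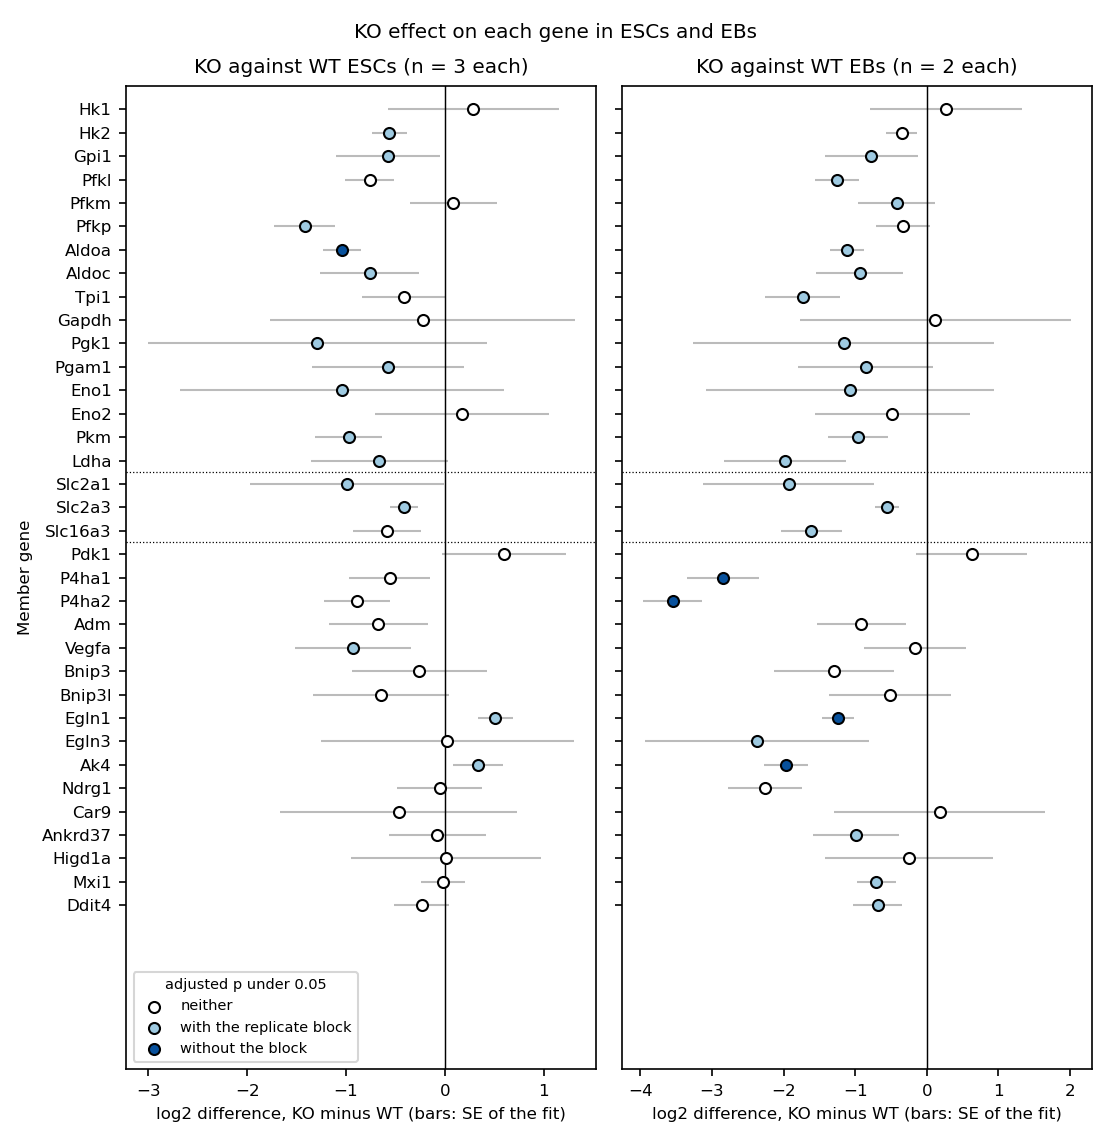
Log2 difference, KO minus WT, of each of the 35 genes in ESCs (left) and EBs (right), with the SE of the limma fit as bars and dotted lines between the 3 lists. Most points lie left of 0 in EBs, from -3.55 for P4ha2 to 0.62 for Pdk1, and filled points passed an adjusted p of 0.05 without (dark) or only with (light) the replicate letter as a block.

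The 3 transporters were lower in every KO library than in the WT library of its letter, in both stages. Slc2a1, the widespread glucose transporter GLUT1, had 695, 656 and 4855 normalized counts in KO ESCs against 1405, 1271 and 9714 in WT ESCs. In EBs it had 1542 and 1328 in KO against 5819 and 5117 in WT. KO over WT was 0.495, 0.516 and 0.500 in ESCs of A, B and C, and 0.265 and 0.260 in EBs of A and B. Slc2a1 thus had a log2 difference of -0.99 between the ESC groups (SE 0.98, adjusted p = 0.751, and 0.00341 with the block; range over the alternatives 7.37e-05 to 0.982). In EBs it was -1.93 (SE 1.20, adjusted p = 0.597, and 0.00164 with the block; range 2.14e-06 to 1.00).

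Slc2a3, the high-affinity glucose transporter GLUT3, was the most abundant transporter at 2101 normalized counts per kilobase. It had 12244, 13158 and 11482 normalized counts in KO ESCs against 16189, 17650 and 15274 in WT ESCs, and 12958 and 13831 in KO EBs against 18844 and 20587 in WT EBs. KO and WT did not overlap in either stage, and its replicate C values were close to those of A and B. ESCs had a log2 difference of -0.41 (SE 0.14, adjusted p = 0.170) and EBs one of -0.56 (SE 0.17, adjusted p = 0.172). With the block these adjusted p were both 0.00575 (ranges over the alternatives 0.00237 to 0.572 and 0.000511 to 0.778).

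Slc16a3, the lactate exporter MCT4, had 405, 353 and 494 normalized counts in KO ESCs against 504, 438 and 1090 in WT ESCs. In EBs it had 743 and 598 in KO against 2276 and 1822 in WT. The ESC groups overlapped and the EB groups did not. Its log2 difference in EBs was -1.61 (SE 0.42, adjusted p = 0.116, and 0.0113 with the block; range over the alternatives 3.71e-05 to 0.601). Slc16a3 lies on chromosome 11, where the median log2 difference of 1344 genes was -0.23 in KO against WT ESCs and -0.44 in KO against WT EBs. Aldoc and P4ha2 lie there too, and the part of the chromosome in their results was not tested.

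**Figure D3:**
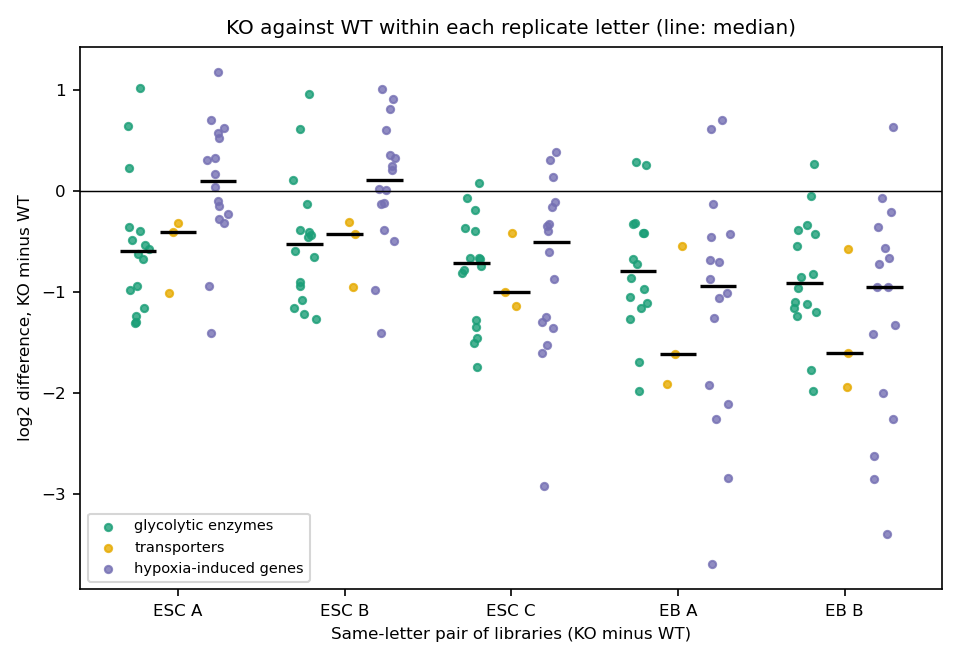
Each point is 1 gene's log2 difference between the KO and the WT library of the same letter, for the 5 letter pairs, coloured by list, with the median of each list as a line. Glycolytic enzymes had medians of -0.60, -0.53 and -0.71 in ESCs of A, B and C, and hypoxia-induced genes had 0.10, 0.11 and -0.50 there but -0.94 and -0.96 in EBs of A and B.

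Hypoxia-induced genes carried the 4 calls between KO and WT EBs. P4ha1, P4ha2, Egln1 and Ak4 fell in KO EBs, so that 4 of the 35 genes were called lower (limma, adjusted p under 0.05), where 1.37% of all genes tested were called lower, and 0 were called higher, where 0.469% were. Together the 16 genes took 0.0866% and 0.0867% of gene reads in KO EBs against 0.189% and 0.196% in WT EBs. ESCs had about the share of KO EBs, with 0.0831%, 0.0859% and 0.0727% in KO and 0.0753%, 0.0753% and 0.0808% in WT. The median log2 difference of the 16 was -0.95 in EBs and -0.15 in ESCs, beside -0.02 for all genes in each. Without the replicate C libraries the ESC median was 0.11. In EBs, 14 and 15 of the 16 were lower in KO in A and B. In ESCs the counts were 7, 6 and 13 of 16 in A, B and C.

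P4ha1 and P4ha2 encode the alpha subunits of the enzyme that hydroxylates proline in collagen. P4ha1 had 589 and 618 normalized counts in KO EBs against 4235 and 4472 in WT EBs. In ESCs it had 458, 477 and 158 in KO against 557, 523 and 379 in WT. WT EBs stood above all other libraries. P4ha1 fell in KO EBs (log2 difference -2.85, SE 0.50, adjusted p = 0.0382), with KO over WT at 0.139 and 0.138.

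P4ha2 had 170 and 211 normalized counts in KO EBs against 2228 and 2226 in WT EBs, and 66.9, 77.2 and 94.4 in KO ESCs against 179, 207 and 85.6 in WT ESCs. Again the WT EBs were the high libraries, and the ESC groups overlapped through replicate C. P4ha2 fell in KO EBs (log2 difference -3.55, SE 0.41, adjusted p = 0.0101), the largest difference among the 35 genes in either stage, with KO over WT at 0.0764 and 0.0946.

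Egln1, the main oxygen-sensing prolyl hydroxylase that marks HIF alpha subunits, had KO differences of opposite sign in the 2 stages. It had 258 and 186 normalized counts in KO EBs against 540 and 498 in WT EBs. In ESCs it had 341, 304 and 306 in KO against 220, 200 and 247 in WT. KO and WT did not overlap in either stage. Egln1 fell in KO EBs (log2 difference -1.24, SE 0.22, adjusted p = 0.0382). In KO ESCs its log2 difference was 0.51 (SE 0.18, adjusted p = 0.189, and 0.0317 with the block; range over the alternatives 0.00825 to 0.487).

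Ak4, a mitochondrial adenylate kinase, was the most abundant of the 16 at 445 normalized counts per kilobase. It had 558 and 566 normalized counts in KO EBs against 2120 and 2279 in WT EBs, and 3074, 3320 and 2064 in KO ESCs against 2486, 2641 and 1581 in WT ESCs. KO EBs were below every other library. Ak4 fell in KO EBs (log2 difference -1.97, SE 0.31, adjusted p = 0.0287). In ESCs the difference was 0.34 (SE 0.25, adjusted p = 0.609), with KO above WT in every letter.

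The 4 calls depended on the libraries used. Fits without 1 of the 4 EB libraries leave 1 library in that group and cannot show whether a call holds. Without A or B of either ESC genotype P4ha2 alone was called in this comparison, where 0.564% to 0.615% of all genes were called. TMM scaling left P4ha2 and Ak4 called, where 1.63% of all genes were called. Without replicate C of KO ESCs the count was 7, where 7.36% of all genes were called. It was 8 without replicate C of WT ESCs, where 6.32% were, and 31 without both, where 51.9% were.

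Egln3, another HIF prolyl hydroxylase and itself a HIF target, had 98.2 and 63.7 normalized counts in KO EBs against 428 and 399 in WT EBs. In ESCs it had 32.6, 35.4 and 319 in KO against 25.8, 27.5 and 488 in WT. The EB groups did not overlap and replicate C was high in both ESC groups. The EB difference was -2.37 (SE 1.56, adjusted p = 0.639, and 0.00944 with the block; range over the alternatives 2.62e-05 to 1.00).

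Ddit4, an inhibitor of mTORC1 signalling, had 655 and 538 normalized counts in KO EBs against 1070 and 856 in WT EBs, and 848, 713 and 469 in KO ESCs against 996, 775 and 596 in WT ESCs. The EB groups did not overlap, and its log2 difference there was -0.69 (SE 0.34, adjusted p = 0.448, and 0.00929 with the block; range over the alternatives 0.00648 to 1.00). Adm, the vasodilator peptide adrenomedullin, had 53.7 and 50.1 in KO EBs against 98.8 and 98.1 in WT EBs, and 12, 9.1 and 2.8 in KO ESCs against 12.9, 12.2 and 9.9 in WT ESCs. Its ESC replicate C values were 1 read in KO and at the floor of 3 reads in WT.

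**Figure D4:**
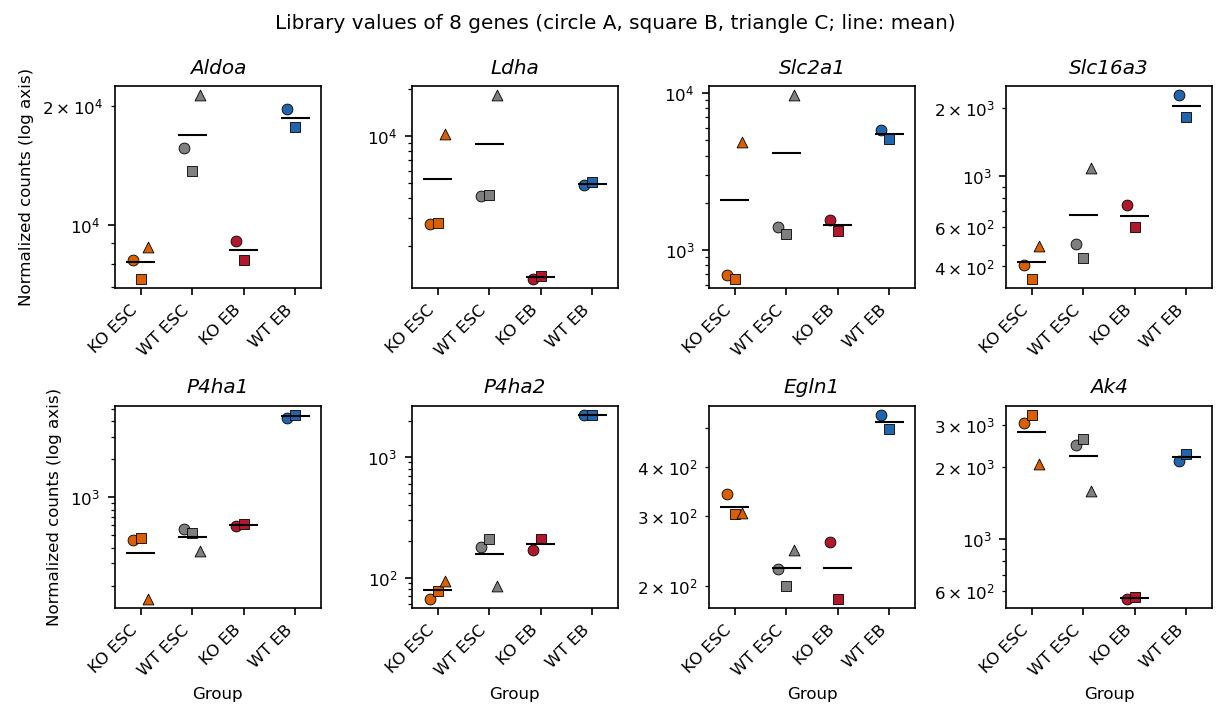
Normalized counts (log axis) of 8 genes in each library of the 4 groups, with the group mean as a line and the replicate letter as the symbol. P4ha1 and P4ha2 are high in WT EBs alone, at 4235 and 4472 and at 2228 and 2226, Ak4 is low in KO EBs alone, at 558 and 566, and Ldha and Slc2a1 are highest in ESC replicate C of WT.

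Over all 35 genes, 29 had both KO EB libraries below both WT EB libraries and 2 had them above, where 38.9% and 36.0% of all genes tested did. The 2 were Hk1 and Pdk1. In ESCs 5 genes had all 3 KO libraries below all 3 WT libraries and 1, Egln1, had them above, where 8.78% and 9.23% of all genes did. With the block, 22 members were called lower and 0 higher in KO EBs, where 13.4% and 9.27% of all genes were, and 13 lower and 2 higher in KO ESCs, where 15.3% and 14.0% were. Of the 16 hypoxia-induced genes, 8 were called lower in KO EBs with the block, namely P4ha1, P4ha2, Egln1, Egln3, Ak4, Ankrd37, Mxi1 and Ddit4. In KO ESCs with the block, Egln1 and Ak4 were called higher and the angiogenic factor Vegfa lower. Without the replicate C libraries 29 members were called lower and 2 higher in KO EBs, where 27.9% and 24.1% of all genes were. In ESCs the counts without them were 18 lower and 6 higher, where 27.8% and 27.4% of all genes were.

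Pdk1, which inactivates pyruvate dehydrogenase, had the highest difference of the 16 hypoxia-induced genes in EBs (0.62), where only Car9 was also above 0 (0.18). It had 1816 and 2013 normalized counts in KO EBs against 1184 and 1300 in WT EBs, and 525, 505 and 972 in KO ESCs against 230, 250 and 1281 in WT ESCs. It was chosen for these values after they were seen, and its difference was not called in either stage. Ndrg1, a stress-induced gene with 8.43% of its exons over genes on the other strand, had 110 and 101 in KO EBs against 530 and 487 in WT EBs. Its log2 difference of -2.26 (SE 0.52) had an adjusted p of 0.0830. The mitophagy receptor genes Bnip3 and Bnip3l had 190 and 186, and 230 and 238, in KO EBs against 455 and 467, and 317 and 351, in WT EBs. Car9, a carbonic anhydrase and a classical hypoxia marker, stayed between 0 and 23.9 normalized counts in all libraries, with 0 reads in replicate C of KO ESCs. The log2 differences of Vegfa, Ankrd37, Higd1a and Mxi1 in EBs lay between -0.98 and -0.17, and those of the 8 enzymes not described singly between -0.94 and 0.27.

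Markers of extraembryonic endoderm moved with these EB results. Of 10 such markers, 9 were called lower in KO EBs, and their summed level was 2364 and 2343 normalized counts in KO EBs against 123249 and 122194 in WT EBs, with 5117 to 9800 over the ESC libraries. Afp and Ttr had 0 to 1.7 in KO EBs against 405 and 473 for Afp and 152 and 146 for Ttr in WT EBs. Gata4 and Sox17 were above 0 in all 4 EB libraries, but they too were lower in KO. The log2 differences of all 10 markers in EBs were negative, from -8.78 to -3.97. The lowest was that of Afp, which had 0 in both KO EB libraries, so its size rests on the pseudocount. Afp, Ttr, Apoa1 and Cubn had means under 10 in every group but WT EBs. They thus reached the minimum for testing only through the WT EB libraries, and their fitted folds lean on the pseudocount. ESC markers summed to 29063 and 25429 in KO EBs against 18021 and 16146 in WT EBs. Cardiac muscle markers summed to 32.5 and 40.8 in KO EBs against 341 and 268 in WT EBs, of which Myh7 alone held 2.8 and 0 in KO EBs against 302 and 244 in WT EBs. Neural markers summed to 890 and 710 in KO EBs against 629 and 548 in WT EBs, and red blood cell markers to 43.8 and 40.8 in KO EBs against 32.9 and 29.3 in WT EBs. Within the neural list Nes and Pax6 were lower in both KO EB libraries than in both WT EB libraries and Sox1, Tubb3 and Map2 higher, and the red blood cell sum was nearly all Alas2, with the globins at 0 in KO EBs and at 4.3 or less in WT EBs. Fibroblast markers summed to 2622 and 2616 in KO EBs against 3612 and 3594 in WT EBs. The part of these cell types in the levels of the glycolysis and hypoxia genes was not tested.

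The promoters of the 6 genes called in any comparison were read to see whether they carry the core letters of the hypoxia response element. The motifs were ACGTG and, as a variant of it, GCGTG. Both were searched on both strands and may overlap each other, and the capitals below mark every match on either strand. The windows are the 250 bases before the RefSeq transcription start, GRCm38.p6, written in the direction of transcription. They are chr10:59323046-59323295 (plus strand) for P4ha1, chr11:54100674-54100923 (plus) for P4ha2, chr8:124949255-124949504 (minus) for Egln1, chr4:101419039-101419288 (plus) for Ak4, chr7:110627407-110627656 (plus) for Adm and chr7:126800448-126800697 (minus) for Aldoa.
P4ha1: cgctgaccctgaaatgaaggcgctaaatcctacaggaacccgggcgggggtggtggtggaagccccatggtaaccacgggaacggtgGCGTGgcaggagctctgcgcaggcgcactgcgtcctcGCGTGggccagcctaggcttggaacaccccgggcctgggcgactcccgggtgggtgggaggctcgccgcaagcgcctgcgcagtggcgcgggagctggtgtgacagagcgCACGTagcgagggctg
P4ha2: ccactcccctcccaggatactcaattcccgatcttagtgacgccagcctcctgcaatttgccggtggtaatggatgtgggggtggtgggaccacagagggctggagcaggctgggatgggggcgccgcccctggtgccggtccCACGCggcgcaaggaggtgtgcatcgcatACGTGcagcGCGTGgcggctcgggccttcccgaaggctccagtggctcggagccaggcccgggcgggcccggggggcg
Egln1: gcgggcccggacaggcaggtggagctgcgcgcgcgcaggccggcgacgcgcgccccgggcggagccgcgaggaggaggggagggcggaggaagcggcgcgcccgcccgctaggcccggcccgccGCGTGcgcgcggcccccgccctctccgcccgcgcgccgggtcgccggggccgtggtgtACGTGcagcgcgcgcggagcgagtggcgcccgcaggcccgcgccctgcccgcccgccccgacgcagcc
Ak4: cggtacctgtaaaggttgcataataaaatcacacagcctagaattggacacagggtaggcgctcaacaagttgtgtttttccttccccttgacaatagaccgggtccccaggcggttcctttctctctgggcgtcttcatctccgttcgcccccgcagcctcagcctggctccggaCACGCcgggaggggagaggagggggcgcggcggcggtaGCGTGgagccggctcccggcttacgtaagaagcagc
Adm: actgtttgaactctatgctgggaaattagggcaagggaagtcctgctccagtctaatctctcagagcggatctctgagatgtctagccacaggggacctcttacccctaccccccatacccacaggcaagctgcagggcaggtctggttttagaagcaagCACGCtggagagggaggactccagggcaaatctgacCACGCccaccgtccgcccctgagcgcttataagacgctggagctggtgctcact
Aldoa: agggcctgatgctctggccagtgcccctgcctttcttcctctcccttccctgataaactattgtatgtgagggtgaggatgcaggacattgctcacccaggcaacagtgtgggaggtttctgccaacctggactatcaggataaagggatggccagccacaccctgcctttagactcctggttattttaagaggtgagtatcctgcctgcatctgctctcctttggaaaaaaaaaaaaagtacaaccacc

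The letters occur 3 times each in the windows of P4ha1 and P4ha2, 2 times each in those of Egln1, Ak4 and Adm, and not at all in the window printed for Aldoa. Aldoa and Ak4 have further RefSeq starts, whose windows are not shown. The P4ha2 matches begin 107, 78 and 69 bases before the start, and those of P4ha1 163, 126 and 16. Of the 32 members with a promoter in the RefSeq table, 24 (75%) held at least 1 match, against 12679 of 32851 promoter windows (38.6%) of all genes. Members were counted by 1 window each and all genes by every RefSeq window, further starts included, so the 2 shares differ in unit. The members were also picked as genes of glycolysis and of the response to low oxygen, and the shares were not tested. By list the members with a match were 10 of 16 glycolytic enzymes, 2 of 2 transporters and 12 of 14 hypoxia-induced genes. Slc2a3, Bnip3l and Ndrg1 were not matched to the table. A match describes letters in a window and not a bound site.

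Between stages, P4ha1, P4ha2, Adm and Egln1, all of the hypoxia-induced list, rose in WT EBs, so that 4 of the 35 genes were called higher and 0 lower, where 2.01% and 0.475% of all genes tested were. The log2 difference, WT EBs minus WT ESCs, was 3.18 for P4ha1 (SE 0.46, adjusted p = 0.0157) and 3.91 for P4ha2 (SE 0.37, adjusted p = 0.00406). It was 2.98 for Adm (SE 0.56, adjusted p = 0.0414) and 1.22 for Egln1 (SE 0.20, adjusted p = 0.0241). Both WT EB libraries of these 4 genes lay above all 3 WT ESC libraries. The median of the 16 hypoxia-induced genes was 1.13, against -0.08 for the 16 glycolytic enzymes and 0.09 for all genes. The enzyme and all-gene medians turned to 0.14 and -0.042 with the block and to 0.14 and -0.038 without the replicate C libraries. Fits without 1 of the WT EB libraries leave 1 library in that group and cannot show whether a call holds. Without any 1 of the other A and B libraries 1 to 3 members were called, where 0.722% to 1.31% of all genes were. Without 1 of the replicate C libraries 7 or 8 were called, where 4.56% to 7.64% of all genes were. All libraries of the later stage lay above all of the earlier one for 11 of the 35 genes and below them for 1, where 23.2% and 19.4% of all genes did.

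With the block 8 members were called higher and 1 lower in WT EBs, where 5.09% and 4.44% of all genes were. Slc2a1, Slc16a3, Egln3 and the Myc antagonist Mxi1 joined the 4, and the hexokinase Hk2 was called lower. The block was set within each stage with letter A as its reference, so between stages it compares levels fitted for letter A. Letter A of EBs and letter A of ESCs are not known to share a batch. This also changed the size of the differences here. That of Slc2a1 was 1.08 (SE 1.09, adjusted p = 0.731) without the block and 2.07 with it (adjusted p = 0.00264; range over the alternatives 1.85e-06 to 0.959). Egln3 stood at 2.53 (SE 1.43, adjusted p = 0.503) without the block and 3.98 with it (adjusted p = 0.00996; range 2.21e-06 to 0.959). Without the replicate C libraries 21 members were called higher and 4 lower, where 22.5% and 23.7% of all genes were.

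Between KO EBs and KO ESCs Ak4 alone was called, lower in KO EBs than in KO ESCs (log2 difference -2.29, SE 0.28, adjusted p = 0.0263), so that 0 members were higher and 1 lower, where 0.450% and 0.355% of all genes were. For 9 of the 35 genes both KO EB libraries lay above all KO ESC libraries and for 5 below them, where 21.2% and 20.5% of all genes did. P4ha1 had 589 and 618 normalized counts in KO EBs against 458, 477 and 158 in KO ESCs, and P4ha2 had 170 and 211 in KO EBs against 66.9, 77.2 and 94.4 in KO ESCs. The median of the 16 hypoxia-induced genes was 0.22 and that of the glycolytic enzymes -0.26, beside 0.06 for all genes. The sign of the last 2 rested on replicate C, since they were 0.051 and -0.053 with the block and 0.095 and -0.055 without the replicate C libraries. With the block 3 members were called higher (Pfkp, Slc2a1 and Vegfa) and 3 lower (Pfkm, Ldha and Ak4), where 3.47% and 4.85% of all genes were. Here too the block compares levels fitted for letter A of each stage. Ak4 lost its call without A or B of either ESC genotype, but 0 of all 15781 genes were called in those fits. They therefore cannot show whether the Ak4 call holds. Nor can fits without 1 of the KO EB libraries, which leave 1 library in that group. Without the replicate C libraries 12 members were called higher and 9 lower, where 21.3% and 26.0% of all genes were.

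Whether the KO effect itself differed between EBs and ESCs was tested as the difference of the differences, EBs minus ESCs. No member passed (limma, 0 of 35, with 5 at an unadjusted p under 0.05), where 0.0634% of all genes were called higher and 0.412% lower. Of all 15781 genes tested, 1350 were at an unadjusted p under 0.05 with limma. edgeR on recovered reads called 0 members and DESeq2 called 5, where 0.532% and 4.90% of all genes were called. The nearest were Egln1 at -1.75 (SE 0.28, adjusted p = 0.0526) and Ak4 at -2.31 (SE 0.40, adjusted p = 0.0662). With the block 8 members were called lower (Tpi1, Ldha, Slc2a1, P4ha1, Egln1, Egln3, Ak4 and Mxi1) and 2 higher (Pfkp and Vegfa), where 4.99% and 2.81% of all genes were. With the block the adjusted p of Ak4 was 0.00292 (range over the alternatives 2.98e-06 to 0.395) and that of Egln1 0.0140 (1.31e-06 to 0.377). Without the replicate C libraries 18 members were called lower and 2 higher, where 19.9% and 16.3% of all genes were.

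Slc2a1 and Egln3 also differed in their shares of their families. Per kilobase, Slc2a1 made up 19.7% and 16.6% of the summed level of Slc2a1 and Slc2a3 in KO EBs against 39.0% and 33.9% in WT EBs. The same share was 10.5%, 9.34% and 46.6% in KO ESCs against 15.2%, 13.0% and 56.8% in WT ESCs, so KO was lower in each letter and replicate C was high. Egln3 made up 33.9% and 31.6% of Egln1 and Egln3 in KO EBs against 51.7% and 52.0% in WT EBs. P4ha2 made up 16.0% and 18.3% of the P4ha pair in KO EBs against 25.8% and 24.7% in WT EBs. Aldoa held 97.5% or more of the level of Aldoa and Aldoc in all libraries. Hk2 made up 74.8%, 75.7% and 94.5% of the hexokinase pair in KO ESCs against 86.7%, 86.8% and 95.6% in WT ESCs. These shares are descriptions without a test.

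The pathway around the 35 genes was followed in a further 8, 32 and 22 genes. Of 8 genes of the HIF pathway core, 1 was called lower in KO EBs, where 1.37% of all genes were, and none in KO ESCs or between stages. That gene was Epas1, the HIF2 alpha subunit, with 107 and 121 normalized counts in KO EBs against 1352 and 1324 in WT EBs, and 243, 225 and 461 in KO ESCs against 306, 292 and 962 in WT ESCs. KO EBs were the lowest libraries, and Epas1 fell there (log2 difference -3.54, SE 0.59, adjusted p = 0.0339). Hif1a, the HIF1 alpha subunit, was at -0.44 in KO against WT ESCs (SE 0.16, adjusted p = 0.192) and at -0.41 in EBs (SE 0.19, adjusted p = 0.402). Arnt, the partner subunit, was at -0.33 and 0.13, and Vhl, which targets the alpha subunits for destruction, at 0.30 and -0.47 in the same comparisons, with no call.

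Of 32 other genes of glycolysis and pyruvate use, 26 were abundant enough to test, and 2 were called lower in KO EBs, beside the same 1.37% of all genes. They were Hkdc1, a hexokinase domain gene, with 2.1 and 6.8 normalized counts in KO EBs against 1258 and 1217 in WT EBs, and Slc16a1, the lactate and pyruvate transporter MCT1, with 1150 and 1163 in KO EBs against 3788 and 3712 in WT EBs. Hkdc1 was at or under 16.3 in all ESC libraries, so it was high in WT EBs alone, and a fitted fold for it would rest on the pseudocount. Its means were 9.44 in KO ESCs, 3.34 in WT ESCs and 4.46 in KO EBs. It thus reached the minimum for testing only through the WT EB libraries. Slc16a1 fell in KO EBs (log2 difference -1.70, SE 0.18, adjusted p = 0.00704) and rose in WT EBs over WT ESCs (1.08, SE 0.17, adjusted p = 0.0183). Tigar, a fructose bisphosphatase that slows glycolysis, fell in WT EBs, with 332 and 352 normalized counts against 972, 1043 and 896 in WT ESCs (adjusted p = 0.0316).

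Of 22 other hypoxia-induced genes, 4 were called lower and 0 higher in KO EBs, where 1.37% and 0.469% of all genes were, and the median of the 22 was -0.81. Plod2, which hydroxylates lysine in collagen, had 428 and 504 normalized counts in KO EBs against 3426 and 3794 in WT EBs. Its log2 difference was -2.95 (SE 0.25, adjusted p = 0.00506). Loxl2, which cross-links collagen, had 17.7 and 18.7 in KO EBs against 274 and 278 in WT EBs and a difference of -3.85 (SE 0.67, adjusted p = 0.0361). The carbonic anhydrase Car12 had 17.0 and 13.6 in KO EBs against 146 and 133 in WT EBs and a difference of -3.12 (SE 0.58, adjusted p = 0.0436). Wsb1, a ubiquitin ligase adaptor, had 851 and 822 in KO EBs against 1675 and 1741 in WT EBs and a difference of -1.03 (SE 0.14, adjusted p = 0.0185). Plod2, Car12 and Loxl2 were also called higher in WT EBs than in WT ESCs, by 2.91, 4.18 and 3.10 on the log2 scale. The WT EB libraries enter both comparisons.

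Replicate C stood out at genes with near-identical copies, and the size of its excess differed between members. Transcripts of each member were aligned to those of all other genes, and stretches of 75 bases or more at 95% identity or more were counted as copies. Gapdh, the glyceraldehyde phosphate dehydrogenase, has 74 pseudogene copies that together cover 88.0% of its transcript. It had 441, 388 and 9582 normalized counts in KO ESCs against 565, 423 and 10929 in WT ESCs, and 529 and 376 in KO EBs against 434 and 389 in WT EBs. Its replicate C value was 23.1 times the mean of A and B in KO ESCs and 22.1 times in WT ESCs. The same ratio was 31.8 and 33.6 for Pgk1 (4 pseudogene copies, 68.8% of the transcript) and 33.1 and 22.3 for Eno1 (2 copies, 85.6%). KO and WT libraries of Gapdh overlapped within each stage.

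Over the 11 members with a pseudogene copy the median ratio of C to A and B was 3.73 in KO ESCs and 4.95 in WT ESCs, and 10 of 11 were over 1 in each. Over the 24 without one it was 0.680 and 0.817, and 8 and 10 of 24 were over 1. Egln3, with no copy, had ratios of 9.38 and 18.3, and Slc2a1, with no pseudogene copy, 7.19 and 7.26. Alignments that were not unique made up 28.7% and 30.6% of records in replicate C of KO and WT ESCs and 36.9% to 46.1% in the other libraries. Their part in the levels of these genes was not tested. Without Gapdh, Pgk1 and Eno1 the other 13 enzymes still took 0.472%, 0.458% and 0.739% of gene reads in KO ESCs against 0.795%, 0.748% and 1.11% in WT ESCs, and 0.525% and 0.505% in KO EBs against 0.939% and 0.909% in WT EBs. The libraries do not keep the strand, and 5.58% to 26.4% of the exons of Pfkp, Gpi1, Pfkm, Bnip3, Ndrg1, Car9, Ankrd37 and Higd1a overlap other genes, so their counts are uncertain to that extent.

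**Figure D5:**
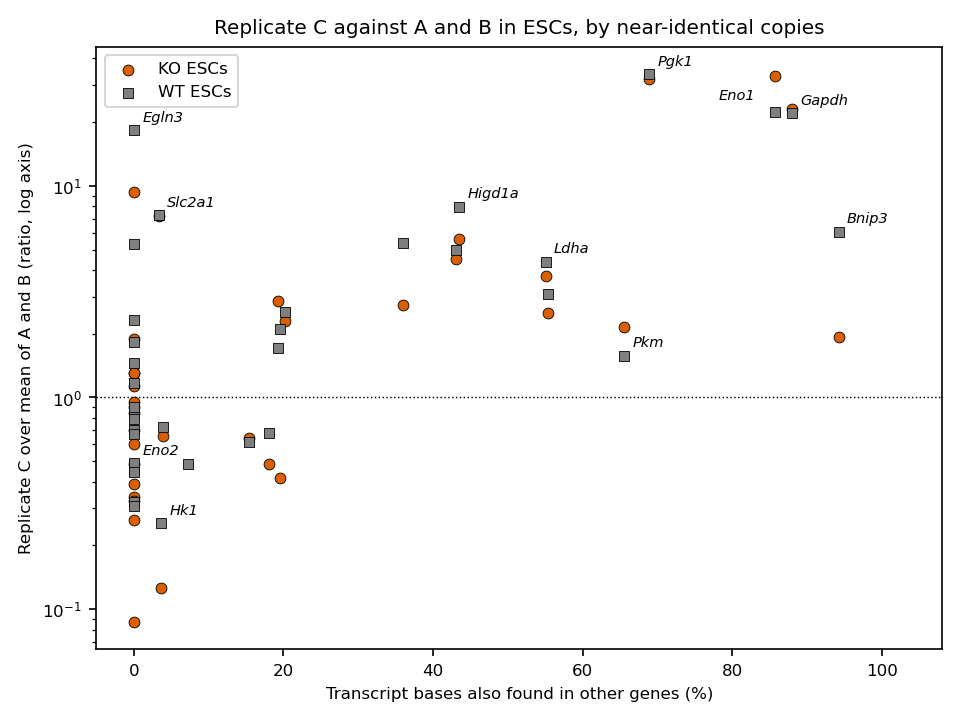
Ratio of replicate C to the mean of A and B (log axis) in KO ESCs (circles) and WT ESCs (squares), against the percent of each member's transcript that occurs in other genes at 95% identity or more. Gapdh, Pgk1 and Eno1 lie at 68.8% to 88.0% with ratios of 22.1 to 33.6, while Egln3 is high at 0%; Car9 in KO ESCs, with 0 reads in C, is not drawn.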

How the data were processed

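RNA of 10 libraries was sequenced. Tools listed without role or order in the submitters' processing notes are DESeq, HTSeq 0.6.0, TopHat2 2.0.10, Bowtie and CASAVA 1.8.2, with build mm10; the annotation release and the strand setting are not given in the sources used here, and per the labels' protocols the libraries were made with the TruSeq RNA kit, which does not mark strand. The table deposited by the authors holds normalized signal: gene counts divided by 1 size factor per library. Its values were whole multiples of what 1 read is worth in the library for 100% of values within a tolerance of 0.01, so whole reads were recovered (3026837 to 15426894 per library); 5 summary lines were left out. The file also turned out to hold no raw counts, so limma was the main test.

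Symbols, coordinates and exon lengths come from GENCODE vM21 (GRCm38), which named 37693 of 39179 identifiers. Log2(value + 1) was fitted with limma 3.58.1 (R 4.3.3; 4 group means, trended and robust variances, 6 residual degrees of freedom) for 15781 genes with a mean of 10 or more, with two-sided tests, Benjamini-Hochberg adjustment over all genes in each of 5 contrasts and a threshold of 0.05. Fold changes on this scale understate the change of low genes. With 2 libraries each, the EB comparisons lean on the spread of the ESC libraries. Alternatives were the replicate letter as a block (3 residual degrees of freedom), both replicate C libraries left out (4), a pseudocount of 8, no filter, TMM scaling, edgeR 4.0.16 and DESeq2 1.42.0 on recovered reads, only the groups compared, and each library left out in turn.

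Letters are shared by KO and WT. The block was set within each stage with letter A as its reference, so its contrasts between stages compare levels fitted for letter A. Deviations from the group means had r = 0.845, 0.828 and 0.858 for same-letter pairs of KO and WT ESCs, each over the 0.1 required, so the letters were taken to pair the libraries; between A and B of different letters r was 0.809 and 0.812, and between C and the others -0.836 to -0.846, so the pairing rests mostly on C. In EBs r was 0.369. The members and lists were chosen with earlier results of these data known. Values in every library are given for members called in any contrast, for members called with the block in KO against WT ESCs or EBs whose groups did not overlap and whose log2 difference was 1 or more, and for the 3 most abundant members per kilobase of each list; Hk1, Eno2, Gapdh, Pdk1, Ndrg1, Bnip3, Bnip3l and Car9 were added after their values were seen. Copies were searched with blastn 2.17.0, and promoters come from RefSeq (GRCm38.p6). Floors of 3 reads cover counting error only.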

Additional observations from a re-analysis of the deposited data

Results flagged for a closer look

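Plod2, which is not one of the 35 genes, was the only gene among the 35 and the genes of the 3 pathway lists whose KO effect differed between EBs and ESCs by limma's test of that difference. The log2 difference, EBs minus ESCs, was -3.33 (SE 0.32, adjusted p = 0.0115). It had 428 and 504 normalized counts in KO EBs against 3426 and 3794 in WT EBs, and 688, 747 and 467 in KO ESCs against 429, 531 and 484 in WT ESCs. The EB groups did not overlap and the ESC groups did. The adjusted p ranged from 7.66e-18 to 0.141 over the alternatives. It was 0.0582 and 0.0584 without replicate A of KO and of WT ESCs, where 0.0190% and 0.0634% of all genes were called. Leaving out 1 of the EB libraries leaves 1 library in a group and cannot show whether the Plod2 result holds. Genes on the other strand overlap 6.42% of its exons.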

How the results depend on the processing

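The number of the 35 genes called depended most on ESC replicate C. With the replicate block the counts were 15 (KO against WT ESCs), 22 (KO against WT EBs), 9 (WT EBs against WT ESCs), 6 (KO EBs against KO ESCs) and 10 (difference of the KO effects), against 1, 4, 4, 1 and 0 without it. With both replicate C libraries left out they were 24, 31, 25, 21 and 20. With DESeq2 on recovered reads they were 6, 10, 6, 4 and 5, and with edgeR 0, 4, 4, 2 and 0. With only the groups compared they were 0, 31, 1 and 0 for the first 4 comparisons, where the EB fit takes its spread from EB libraries alone; the difference needs all groups and was not run that way. No filter gave 0 in KO against WT ESCs, TMM scaling 2 in KO against WT EBs, and a pseudocount of 8 gave 2 in KO EBs against KO ESCs and 2 for the difference. Leaving out each library gave 0 to 4, 0 to 8, 0 to 8, 0 to 4 and 0 to 3. The counts of all genes moved likewise, from 376, 290, 392, 127 and 75 to 4627, 3578, 1503, 1314 and 1230 with the block and 8715, 8196, 7278, 7465 and 5703 without replicate C. With DESeq2 they were 1959, 1552, 1525, 1419 and 774, with no filter 45, 1351, 1655, 107 and 99, with a pseudocount of 8 391, 439, 529, 249 and 191, and with only the groups compared 0, 7768, 60 and 0; edgeR gave 193 in KO EBs against KO ESCs and TMM scaling 46 for the difference.

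Without replicate C of WT ESCs alone the ESC differences turned positive for Pgk1 (0.40), Pgam1 (0.20), Eno1 (0.46) and Ldha (0.048), since the KO mean then still held replicate C; without that of KO ESCs they were -2.95, -1.30, -2.73 and -1.29. Without replicate C of KO ESCs alone the difference of effects turned for Slc2a1 (0.0077), and without that of WT ESCs it was -1.89. Over all 35 genes, comparisons and alternatives, 192 of 3115 log2 differences had the other sign than the reported one, 19 of them with the block and 27 without both replicate C libraries. Among the differences called, or between KO and WT called with the block, 129 values moved past the threshold under an alternative and 73 no longer passed it. With 2 EB libraries per group, and 3075007 and 3026837 reads in replicate C of KO and WT ESCs, low genes such as Adm and Car9 were the least certain.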

Other observations

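Some glycolysis and hypoxia genes outside the 35, chosen after their values were seen, differed by genotype in A and B of ESCs and were not called. The fructose bisphosphatase gene Fbp2 had 438, 533 and 25.0 normalized counts in KO ESCs against 122, 143 and 26.4 in WT ESCs. Pfkfb2, which sets the level of fructose 2,6-bisphosphate, had 482, 551 and 72.2 in KO ESCs against 157, 202 and 105 in WT ESCs, and 19.5% of its exons overlap other genes. The transferrin receptor gene Tfrc had 721, 838 and 2255 in KO ESCs against 3164, 3753 and 5086 in WT ESCs, and 507 and 555 in KO EBs against 1191 and 1375 in WT EBs, lower in KO in every letter (adjusted p = 0.0685 in ESCs and 0.321 in EBs by limma).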
